A study of Mus musculus with 4 samples.

Results

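The genes described here are the EGF family ligands Areg, Ereg, Tgfa, Hbegf and Btc, the ErbB receptor genes Egfr, Erbb2 and Erbb3, and 2 genes whose products restrain these receptors, Lrig1 and Errfi1. They were chosen by name, and every probe set that the platform annotation gives to 1 of them was taken. Of the 10 genes, 9 had a probe set and together held 20 of the 45037 probe sets that are no controls, while Areg is not analysed here. RNA came from mouse colon adenoma organoids, 3D cultures of tumour epithelium, on the C57BL/6 background. All mice carried floxed Apc (Apc fl/fl), the Wnt pathway suppressor gene, and VillinCreERT2, a Cre recombinase switched on by tamoxifen and under the Villin promoter, which is active in intestinal epithelium. The group labelled Apc null kept both Gata6 alleles (Gata6+/+). The group labelled Gata6 null/Apc null, below the arrays labelled double null, was also Gata6 fl/fl, which targets a zinc finger transcription factor of the endoderm. Each group had 2 Affymetrix arrays, 1 of a batch labelled A and 1 of a batch labelled B, and the labels state neither the age nor the number of the mice. Organoids of both groups were cultured for 7 days with EGF at 50 ng/ml, so a ligand of EGFR was supplied to every culture whatever the cells made themselves.

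EGF family ligands are made as membrane-anchored precursors that proteases of the ADAM family cut free, and they bind receptors of the ErbB family on the same or neighbouring cells. Binding brings receptors together in pairs, which activates the RAS to ERK and the PI3 kinase cascades. ERBB2 binds no known ligand and acts as a partner, and ERBB3, whose kinase is weak, signals mainly through its partners. In the gut the family drives epithelial growth and repair, and LRIG1 and the cytoplasmic protein MIG6, which Errfi1 encodes, limit its signal.

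Values are log2 expression as RMA gives it, so a difference of 1 is a factor of 2. Array medians lay between 4.91 and 5.04. Over all probe sets, arrays of 1 batch correlated at 0.978 and 0.979, and arrays of 1 genotype at 0.975 and 0.976. Both Gata6 probe sets read higher in the arrays labelled double null, at 9.11 to 9.40 against 8.61 to 8.89. In the fit over genes the brighter one differed by 0.64 (limma adjusted p = 0.418, and 0.0392 with the batch letter as a block). Where they lie relative to the floxed exons is unknown here, so they do not check the labels, and each direction below rests on the labels. Differences are double null minus Apc null throughout.

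Egfr and a pair of its ligands, Hbegf and Btc, read lower in the arrays labelled double null, by 2.02-fold, 2.21-fold and 2.06-fold, in both batches. The partner receptors Erbb2 and Erbb3, the ligand Tgfa and the inhibitors Lrig1 and Errfi1 differed by at most 0.25 in size. Of the 9 genes with a probe set, 8 had a mean above the level used to leave out dim genes (4.45, the 40th percentile of the probe sets). With genotype as the single term, 0 of these 8 passed a limma adjusted p of 0.05, where 0.648% of 11874 genes did, and 3 of 8 had an unadjusted p under 0.05, as did 946 of the 11874. With the replicate block, a fit that takes the batch letter shared by 1 array of each genotype as a block, 3 of 8 passed, Hbegf, Btc and Egfr, all lower, against 6.88% of all genes in either direction. Both arrays of a genotype lay on the same side of both arrays of the other for 5 of the 8, against 32% of all genes. The median difference was -0.15 over the 8 genes and -0.03 over all genes tested. The members were chosen with earlier results of these data known, so these counts describe them and do not test the family.

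**Figure D1:**
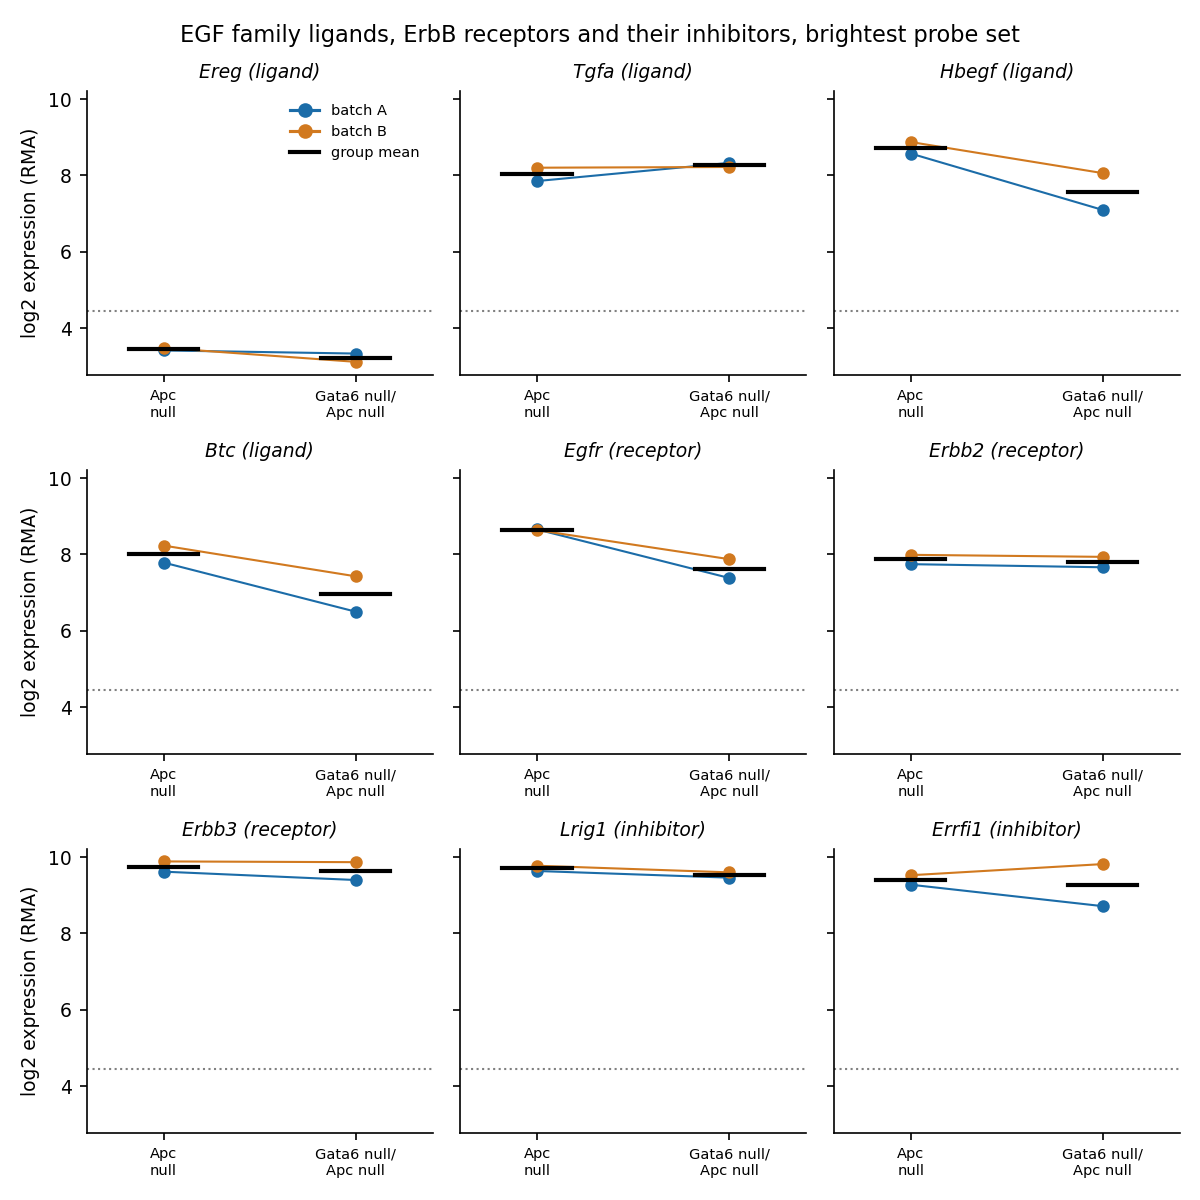
Log2 expression (RMA) of each member on the 4 arrays at its brightest probe set, with arrays of 1 batch joined by a line, black bars for group means and a dotted line at the filter level of 4.45. Hbegf, Btc and Egfr slope down in both batches, Errfi1 goes down in batch A and up in batch B, and Ereg lies under the dotted line on all 4 arrays.

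Among the ligands, Hbegf encodes heparin-binding EGF-like growth factor, which binds EGFR and ERBB4. Its brighter probe set read 8.58 and 8.88 in the Apc null arrays of batches A and B, and 7.10 and 8.06 in the arrays labelled double null. The groups did not overlap, and the array labelled double null of batch A was the lowest of the 4. The difference was -1.15 (SE 0.38, limma adjusted p = 0.509), or -1.48 within batch A and -0.81 within batch B, and the adjusted p with the batch as a block was 0.0236. The other Hbegf probe set gave 8.29 and 8.70 against 6.94 and 7.88, a difference of -1.09 (limma adjusted p = 0.731 across probe sets, or 0.0292 with the block). Both probe sets of the gene thus had the same order of arrays.

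Btc encodes betacellulin, a further ligand of EGFR and ERBB4. At its brighter probe set the Apc null arrays of batches A and B read 7.79 and 8.23, those labelled double null 6.50 and 7.43. As with Hbegf, the groups did not overlap and the lowest value was that of the array labelled double null of batch A. The difference was -1.05 (SE 0.40, limma adjusted p = 0.619), or -1.29 within batch A and -0.81 within batch B, and an adjusted p of 0.0283 with the block. The dimmer Btc probe set, at 7.29 and 7.50 against 5.96 and 6.69, differed by -1.07 (limma adjusted p = 0.620 across probe sets, or 0.0479 with the block).

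Tgfa, which encodes transforming growth factor alpha, was the single member with a positive difference. Its brightest probe set read 7.85 and 8.20 in the Apc null arrays and 8.33 and 8.22 in the arrays labelled double null. These values do not overlap, but the gap between the nearest arrays is small beside the distance between the Apc null arrays. The difference of 0.25 (95% interval -0.37 to 0.86, limma adjusted p = 1.00, and 0.506 with the block) came from batch A, with 0.47 there and 0.02 in batch B. The other Tgfa probe sets differed by 0.27 and 0.05, so all 3 were positive and none passed. The one at 0.27 had the larger difference in batch B, 0.40, against 0.14 in batch A, so the batch split of the brightest probe set was not shared.

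Ereg, the gene of epiregulin, read 3.42 and 3.49 against 3.34 and 3.12. All 4 values lie below the filter level, at the 7.49th percentile of probe set means, so it was not tested and its difference of -0.22 is one between values near the array floor. In the RefSeq gene table of GRCm38.p6, Epgn, Ereg, Areg and Btc follow each other on chromosome 5 with 0 other protein-coding genes between them. Of this run, Epgn, which encodes epigen, was also below the filter level, at 3.81 to 3.96 on the 4 arrays. Btc was thus the only gene of the 3 measured in this run with a mean above the filter level.

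Egfr, the receptor for EGF and for all the ligands above, read 8.65 and 8.64 in the Apc null arrays of batches A and B at its brightest probe set. It read 7.38 and 7.88 in the arrays labelled double null. The Apc null arrays were nearly equal, and both others lay below them. The difference was -1.02 (SE 0.26, 95% interval -1.69 to -0.34, limma adjusted p = 0.316), or -1.27 within batch A and -0.76 within batch B, and an adjusted p of 0.0244 with the block. Of the genes tested, 4.99% had a larger difference in either direction, against 4.04% for Hbegf and 4.72% for Btc.

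The annotation gives 6 probe sets to Egfr, and in all 6 both arrays labelled double null read below both Apc null arrays. The second brightest read 8.47 and 8.55 against 7.22 and 7.96, a difference of -0.92 (limma adjusted p = 0.695 across probe sets, or 0.0622 with the block). The following ones differed by -0.72 and -0.96. The remaining ones lie near the filter level, one just above and one just below it, and differed by -0.36 and -0.30. Tested one by one over the 27022 probe sets above the filter level, 18 member probe sets gave 0 calls with genotype alone, where 0.2% of probe sets were called. With the block, 5 of the 18 passed, all lower, against 4.43% of probe sets. These were both probe sets of Hbegf, both of Btc and the brightest of Egfr. The probe sets of 1 gene measure the same RNA and are not independent of each other.

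**Figure D2:**
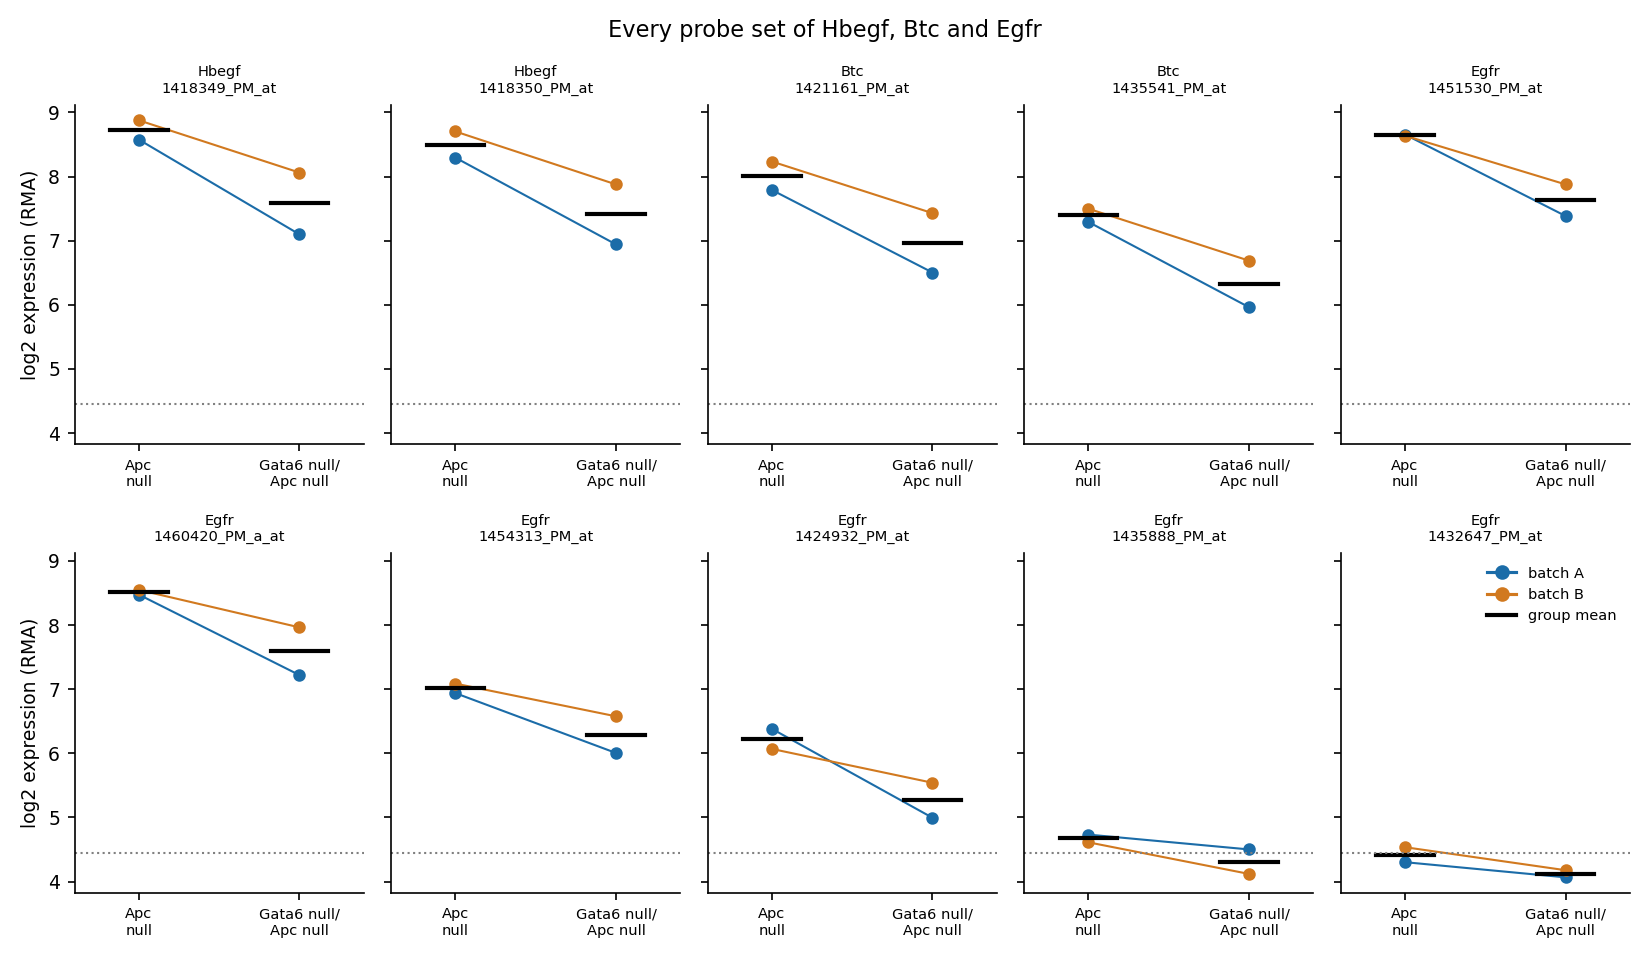
Log2 expression (RMA) of the 2 Hbegf, 2 Btc and 6 Egfr probe sets on the 4 arrays, with arrays of 1 batch joined by a line, black bars for group means and a dotted line at the filter level of 4.45. Every line slopes down, and in both dimmest Egfr probe sets the values lie close to the dotted line.

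The partner receptors differed little. Erbb2 read 7.75 and 7.99 in the Apc null arrays and 7.67 and 7.94 in the others, a difference of -0.07 (95% interval -0.70 to 0.57, limma adjusted p = 1.00, and 0.879 with the block). The groups overlapped, and within each genotype batch B was the higher. Erbb3 read 9.62 and 9.89 against 9.40 and 9.87, a difference of -0.12 (95% interval -0.70 to 0.46, limma adjusted p = 1.00, and 0.619 with the block), and its other probe set differed by -0.22. These intervals do not show the receptors to be equal between the genotypes. With the block the intervals were narrower, from -0.43 to 0.29 for Erbb2 and from -0.37 to 0.13 for Erbb3.

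Lrig1 encodes a transmembrane protein that promotes the breakdown of ErbB receptors and marks a population of intestinal stem cells. It read 9.64 and 9.77 in the Apc null arrays and 9.46 and 9.60 in the arrays labelled double null. The groups did not overlap by a narrow margin, and the difference was -0.17 within either batch. It did not pass in either fit (limma adjusted p = 1.00, and 0.393 with the block; 95% interval -0.58 to 0.23), and the second Lrig1 probe set differed by -0.22. Both Lrig1 probe sets have names that mark a possible match to further transcripts.

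Errfi1, whose product binds the kinase domain of active EGFR and whose transcription is itself raised by ERK signalling, had no common direction. It read 9.28 and 9.52 in the Apc null arrays and 8.71 and 9.82 in the arrays labelled double null, so the lowest and the highest of the 4 values came from the same genotype. The difference was -0.56 within batch A and 0.29 within batch B. Its mean of -0.13 (95% interval -1.16 to 0.89, limma adjusted p = 1.00, and 0.807 with the block) therefore describes neither batch.

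**Figure D3:**
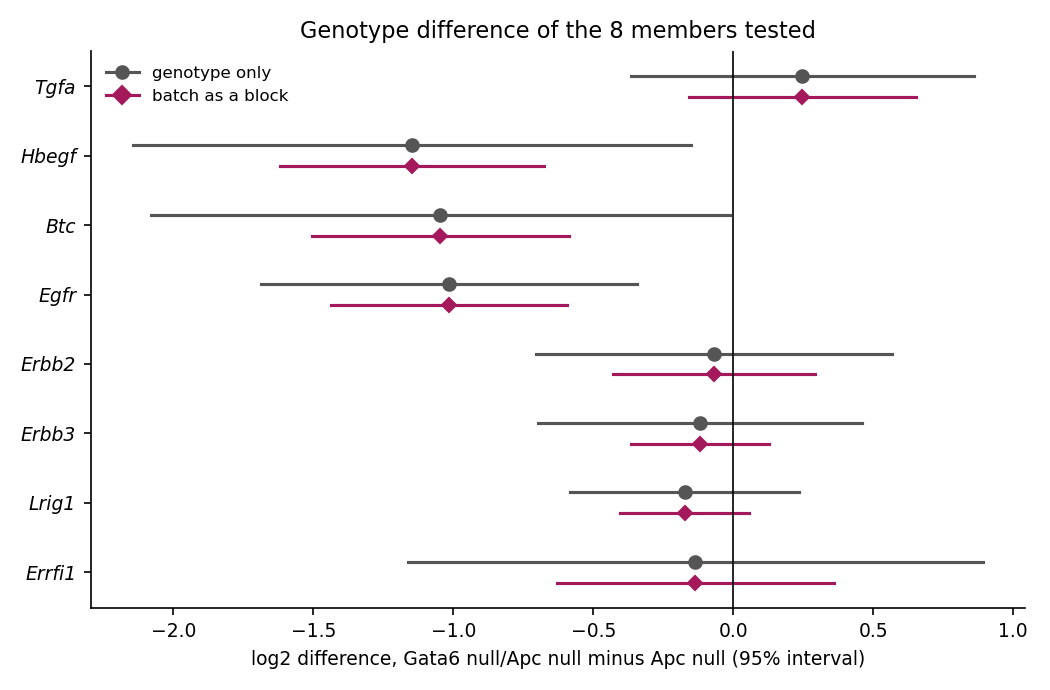
Log2 difference, double null minus Apc null, of the 8 members tested, with 95% intervals of the moderated limma fit for genotype alone (grey circles) and with the batch as a block (red diamonds). Hbegf, Btc and Egfr lie near -1, and the other 5 between -0.17 and 0.25 with intervals across 0 in both fits.

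The size of the Hbegf and Btc differences depended on which array labelled double null was kept. Without the array labelled double null of batch B, Hbegf differed by -1.63, Btc by -1.51 and Egfr by -1.26. Without the array labelled double null of batch A, Hbegf differed by -0.66, Btc by -0.58 and Egfr by -0.77, and no member passed when any 1 of the 4 arrays was left out. The fit with the block has 1 residual degree of freedom, and no block can be fitted on 3 arrays.

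The 250 bases before the RefSeq start sites of Egfr and Btc are shown because these genes were lower together, and that of the upstream Errfi1 start because it is the only window of a member with a match. RefSeq windows (GRCm38.p6) were at hand for 7 of the 10 members, not for Ereg, Hbegf or Erbb3. Motifs of GATA, AP-1 and TCF/LEF factors were searched on both strands after the values were seen. The GATA motif was NGATAN, with A or T before and A or G after the core. The AP-1 motif was TGANTCA, with C or G at the open base, and the TCF/LEF motif was CTTTGAN, with A or T at the last base. Capitals mark a match, and no matches overlap. Egfr lies on chr11:16751953-16752202, + strand; Btc on chr5:91402995-91403244, - strand; the Errfi1 window on chr4:150853546-150853795, + strand.
Egfr: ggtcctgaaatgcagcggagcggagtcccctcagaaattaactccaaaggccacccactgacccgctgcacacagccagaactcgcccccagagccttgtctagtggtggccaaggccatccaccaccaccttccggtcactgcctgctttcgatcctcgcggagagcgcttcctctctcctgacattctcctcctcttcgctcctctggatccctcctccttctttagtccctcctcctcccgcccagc
Btc: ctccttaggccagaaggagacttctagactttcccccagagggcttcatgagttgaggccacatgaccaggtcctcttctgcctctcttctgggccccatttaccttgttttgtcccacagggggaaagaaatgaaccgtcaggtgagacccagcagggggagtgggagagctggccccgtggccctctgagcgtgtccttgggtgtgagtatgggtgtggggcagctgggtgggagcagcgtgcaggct
Errfi1: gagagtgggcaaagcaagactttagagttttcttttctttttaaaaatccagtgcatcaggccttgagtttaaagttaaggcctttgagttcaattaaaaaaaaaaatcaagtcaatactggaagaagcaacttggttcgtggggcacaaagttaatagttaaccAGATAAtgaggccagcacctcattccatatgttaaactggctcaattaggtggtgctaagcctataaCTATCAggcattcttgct

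None of the motifs occurred in the Egfr or Btc window, nor in those of Areg, Tgfa, Erbb2 and Lrig1 or at the second Errfi1 start. The Errfi1 window above held 2 GATA motifs, 1 on each strand. Of 32851 RefSeq windows of this length, 26.5% held a GATA motif, 4.46% an AP-1 motif and 7.48% a TCF/LEF motif. The windows of Egfr and Btc had 60.8% and 59.6% G and C, with a median of 52.4% over all windows. An absence says only that these letters are not in these 250 bases.

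The arrays carried epithelial RNA by their markers. All 9 epithelial markers were above the filter level, with Epcam at 11.29 to 11.53, whereas the pan-leukocyte gene Ptprc read 3.07 to 3.25 and the fibroblast receptor gene Pdgfra 3.34 to 3.52. Of 7 fibroblast markers 2 were above the filter level, of 5 immune markers 1 and of 5 endothelial markers 2, and none of those tested passed in either fit. The immune one, Cd68, read 5.92 and 7.57 in the Apc null arrays of batches A and B and 4.94 and 7.23 in the others. The fibroblast ones were Pdgfrb, at 4.64 to 5.04, and Dcn, at 4.37 to 4.57. Several markers of epithelial identity, stem cells and mature cell types read lower in the same arrays as Egfr, Hbegf and Btc. Cdx2, the intestinal homeobox gene, read 9.13 and 9.41 in the Apc null arrays against 7.29 and 8.11 (limma adjusted p = 0.228, and 0.00545 with the block). The other epithelial markers did not share this size, with differences from -0.24 for Krt18 to -0.01 for Epcam, none called in either fit. Lgr5, an intestinal stem cell receptor gene, read 9.16 and 9.72 against 6.39 and 7.55, a difference of -2.47 (limma adjusted p = 0.161, and 0.00142 with the block). The other stem cell markers did not share this, with Smoc2 at 0.53, Axin2 at 0.46 and Ascl2 at -0.14, none called, and Olfm4 below the filter level, and the 5 summed to 10.93 to 11.26 against 11.02 to 11.04. The summed level of the 3 deep crypt secretory markers ran from 10.36 to 11.23 in the Apc null arrays and from 7.97 to 8.37 in the others, with Kit below the filter level, Spink4 called lower in both fits (-4.30, limma adjusted p = 0.0314 with genotype alone) and Reg4 with the block. The 5 goblet markers measured summed to 11.78 to 11.94 against 10.75 to 11.36, with Agr2 called lower with the block (limma adjusted p = 0.153, and 0.00349 with the block). Of the other goblet markers, Tff3 and Spdef differed by -0.72 and -0.49 without a call, Fcgbp overlapped between the groups and Clca1 was below the filter level. The 4 enteroendocrine markers summed to 6.82 to 7.06 against 6.46 to 6.67, with none called. The 5 colonocyte markers summed to 10.50 to 11.55 against 9.06 to 9.89, a sum carried by Car1 (-1.73, limma adjusted p = 0.421, and 0.000381 with the block). Of the other colonocyte markers, Krt20 overlapped between the groups, and Car4, Slc26a3 and Aqp8 were below the filter level, with differences of 0.07, 0.19 and -0.06. The 4 tuft markers summed higher, at 7.05 to 7.92 against 9.61 to 9.73, with Avil the only one above the filter level (2.67, limma adjusted p = 0.140, and 0.00467 with the block). In RNA from whole organoids, fewer cells of a type and less RNA per cell cannot be told apart, and the part of these markers in the differences of Egfr, Hbegf and Btc, or of the pathway genes that follow, was not tested.

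Around the members, 73 other genes of the pathway were listed, of which 56 were tested. With genotype alone 0 of 56 passed in limma (7 had an unadjusted p under 0.05, as did 946 of 11874 genes), and with the block 3 were higher and 4 lower, against 6.88% of all genes in either direction. Their median difference was -0.03, as over all genes.

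Of the further EGF family genes, Egf, Epgn, Nrg1, Nrg3, Nrg4 and the receptor gene Erbb4 had means below the filter level and were not tested. Nrg2, a neuregulin, was the 1 gene tested and differed by -0.01 (limma adjusted p = 1.00), with 6.04 and 6.04 against 6.14 and 5.92. Among the 7 genes of ligand shedding and trafficking that were tested, 1 was called with the block, where 6.88% of all genes were. This was Adam12, a membrane metalloprotease. It read 4.45 and 3.89 in the Apc null arrays, around the array floor, and 5.53 and 5.95 in the others, a difference of 1.57 (SE 0.27, limma adjusted p = 0.137, and 0.0207 with the block). Its Apc null mean of 4.17 lay under the filter level, so Adam12 entered the test only through the arrays labelled double null, where it was high. The sheddase genes Adam17 and Adam10, chosen after their values were seen, differed by -0.10 and 0.07.

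Of 18 signal transduction genes tested, none was called in either fit, and their differences ran from -0.22 to 0.33. The members with the smallest p were the adaptor gene Gab1, with 0.33, and the kinase gene Akt2, with 0.24 (limma adjusted p = 1.00 and 0.894). Of 17 negative regulators tested, 1 was called with the block, where 6.88% of all genes were called. This was Lrig3, a relative of Lrig1, which read 6.84 and 6.34 in the Apc null arrays against 7.77 and 8.13 in the others, a difference of 1.36 (SE 0.30, limma adjusted p = 0.234, and 0.0276 with the block). Lrig1 and Lrig3 thus lay on opposite sides of 0, and the difference between the genes was not tested. The median over the 17 was 0.02.

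The ERK response genes, transcribed after ERK activation, had the lowest median of the 5 lists, -0.59 over 13 genes tested, with 10 of 13 negative where 55.9% of all genes were. With the block 4 were lower and 1 higher, where 6.88% of all genes were called. Fos, an immediate early transcription factor, read 8.06 and 8.20 in the Apc null arrays against 6.30 and 7.25 in the others, a difference of -1.36 (SE 0.38, limma adjusted p = 0.374, and 0.0245 with the block). Its batch values of -1.77 and -0.95 were ordered as those of Hbegf, Btc and Egfr, with batch A the larger in size. Without the array labelled double null of batch A, Fos differed by -0.88, and without that of batch B by -1.83. Epha2, an ephrin receptor, differed by -0.91 and Myc by -0.59 (limma adjusted p = 0.366 and 0.329, and 0.0288 and 0.0260 with the block). Plaur, the urokinase receptor gene, differed by -0.80 (limma adjusted p = 0.997, and 0.0359 with the block). Within batch A it differed by -0.81 and within batch B by -0.80. Its groups overlapped, at 8.56 and 7.49 against 7.75 and 6.69, with batch B minus batch A at -1.07 in both genotypes. Leaving out 1 array breaks a batch pair and moved the Plaur value. It was -0.27 without Apc null A or double null B and -1.34 without Apc null B or double null A.

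Etv5, an ETS transcription factor, went the other way and had the largest difference of the 56 genes. It read 6.10 and 5.40 in the Apc null arrays and 8.54 and 8.53 in the others, a 6.91-fold difference (log2 2.79, SE 0.32). Its limma adjusted p was 0.0555, or 0.00185 with the block, and 0.0326 after each array was centred on its median. The list thus holds called genes on both sides of 0.

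**Figure D4:**
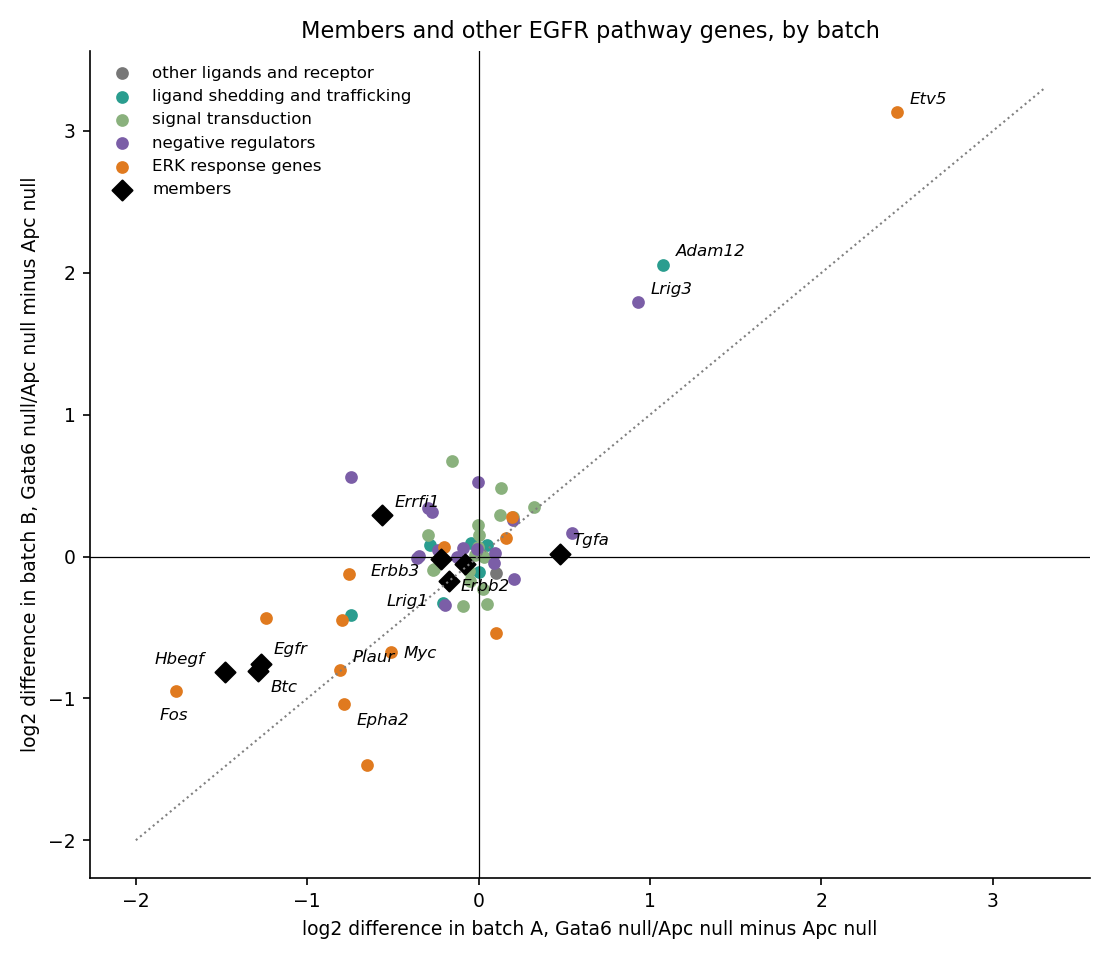
Log2 difference, double null minus Apc null, in batch A (x axis) and batch B (y axis) for the 8 members tested (black diamonds) and the 56 other pathway genes tested (circles coloured by list), with a dotted line of equality. Genes named are the members and those called with the batch as a block. Of these, Hbegf, Btc, Egfr, Fos, Epha2, Plaur and Myc lie well into the lower left. Adam12, Lrig3 and Etv5 lie at the upper right, with Etv5 the farthest out.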

How the data were processed

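The authors deposited 1 log2 value for each probe set and array. The submitters' processing notes name RMA and the affy package, and no version or genome build is given in the sources used here. RMA removes array-wide shifts and compresses dim values. The table held 45141 probe sets, of which 104 controls were left out. The platform annotation gave 1 gene to 28898 probe sets and several to 551, which named none, and 0 symbols changed against RefSeq GRCm38.p6. For each of 17097 genes the probe set of highest mean was kept, and 11874 genes with a mean of at least 4.45 were tested. No per-sample column was left unused.

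The genotypes were tested with limma 3.58.1 under R 4.3.3 (lmFit, eBayes with a trend, genotype as the single term, Benjamini-Hochberg over all genes, threshold 0.05, two-sided). All probe sets above the level were fitted likewise, and the procedure was tested on simulated data. A fit on 2 residual degrees of freedom rests on few arrays, whose number limits the precision. The labels give 1 batch letter to 1 array of each genotype, and batch differences in both genotypes correlated at 0.675 across genes. The arrays of a batch are therefore a pair, and the blocked value or call stands beside each result whose call it changes. Nothing says that the replicates came from separate mice, so p-values may measure technical spread only, and genotype cannot be told apart from differences between mice or cultures.

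Named genes were all members, and from 5 pathway lists every gene past the threshold in either fit, or else the 2 with the smallest p. Members and lists were chosen with earlier results of these data known. Alternatives covered the filter, the probe set rule, the trend, normalization, the block and leaving out each array.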

Additional observations from a re-analysis of the deposited data

How the results depend on the processing

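With the replicate block, 3 members, 5 member probe sets, 7 other pathway genes and 817 of all genes passed, against 0, 0, 0 and 77 with genotype alone. Among the other settings, centring each array on its median let 1 other pathway gene pass, Etv5, and no setting without the block let a member pass. Leaving out 1 array gave 33 to 130 calls among all genes, the lowest without Apc null A and the highest without Gata6 null/Apc null A. The 3 members called with the block kept their direction under all 12 alternatives. Leaving out 1 array turned the sign of some uncalled members, with differences of -0.20 to 0.069 for Erbb2, -0.35 to 0.11 for Erbb3 and -0.69 to 0.42 for Errfi1. Nrg2 turned to 0.012 under repeated quantile normalization, to 0.0054 under centring, and ran from -0.12 to 0.10 without 1 array. Averaging all probe sets gave Egfr a difference of -0.71, since that mean takes in its dim probe sets. Lrig1, Plaur, Epha2, Myc and Akt2 gave no value without probe sets that can match shared sequence, so this setting does not bear on their differences. Signal near the array floor limits Ereg, Adam12 and the dimmest Egfr probe sets.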

Other observations

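Batch moved with several members in both genotypes. Of the 8 members tested, 6 read higher in batch B than in batch A in the Apc null arrays and in those labelled double null (Gata6 null/Apc null), as did 30.5% of all genes. None of the 8 read lower in batch B in both genotypes, where 5091 of 11874 genes did. Hbegf was higher in batch B by 0.30 in the Apc null arrays and by 0.96 in the others. Btc was higher by 0.44 and 0.93, Errfi1 by 0.25 and 1.10, and Egfr differed by -0.02 and 0.49. With 1 array per genotype and batch these values have no replicate, and no test was made of them.

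Some feedback genes of ERK signalling, chosen after their values were seen, had the same pattern. The phosphatase gene Dusp4 read 8.63 and 9.00 in the Apc null arrays of batches A and B and 7.89 and 9.56 in the arrays labelled double null. Spry4, which encodes a Sprouty inhibitor, read 6.36 and 6.94 against 6.09 and 7.26. The related genes Spry1 and Spry2 went the other way. Batch B minus batch A was -0.35 in the Apc null arrays and -0.71 in the others for Spry1, and -0.54 and -0.19 for Spry2. Of the 17 negative regulators tested, 7 were higher in batch B in both genotypes and 8 lower in both, so the pattern is not one of the list. Of all 11874 genes, 3625 were higher in both and 5091 lower in both.

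The related ETS factor genes Etv5 and Etv4 lay on opposite sides of 0. Etv4, chosen after its values were seen, read 6.45 and 8.02 in the Apc null arrays and 5.80 and 6.55 in the others, a difference of -1.06 (limma adjusted p = 0.913, and 0.0642 with the block), where that of Etv5 was 2.79. The difference between the genes was not tested.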
